A study of Chlamydomonas reinhardtii with 18 samples.

Results

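The first 5 min of a time course in the green alga Chlamydomonas reinhardtii were examined by setting the samples taken 5 min after transfer to iron-free medium against those taken directly after the wash. These are 4 of the 18 samples of the course, 2 cultures per group, and the comparison covers 12580 of the 17741 genes in the deposited table. A gene was kept when its FPKM (mapped fragments per kilobase of transcript, corrected for library size) reached 1 in 2 or more of the course's 9 columns. All samples are the unicellular strain CC-4532, grown in acetate-containing TAP medium at 24 °C in continuous light (roughly 90 µmol photons m-2 s-1). The pre-wash group was sampled from that culture, the post-wash group after pelleting at 2500 g for 5 min and 2 washes in TAP without Fe-EDTA, and the 5 min group after that time in fresh TAP without Fe-EDTA. The labels name medium without Fe-EDTA for all groups, pre-wash included, and do not give the iron content before the wash. Polyadenylated RNA was sequenced. Groups at 10 to 30 min (10, 15 and 30) and at 60, 120 and 240 min show the later course.

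The table holds 1 value per gene and group, in which the authors combined the cultures, so each value below is the authors' combined value, no test or error can be given, and differences are described by size. A gene was counted as higher or lower when it differed by at least 2-fold, which is 1 on the log2(FPKM + 1) scale; "difference" below means a difference on that scale, and "fold" beside a single gene a plain ratio of FPKM, while counts of genes past 2-fold or 4-fold use the log2(FPKM + 1) scale. As a guide to how far neighbouring samplings lie apart, the difference had a robust SD of 0.31 over genes between post-wash and 5 min, 0.19 between 5 and 10 min and 0.44 across the wash. Column sums were 755016 FPKM post-wash and 757819 at 5 min, but lower pre-wash, at 631357, and depth is unknown. No group was moved to fresh medium with iron, so elapsed time, the end of pelleting and washing, fresh medium and absence of iron cannot be told apart.

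Chlamydomonas takes up inorganic carbon with a CO2-concentrating mechanism. Bicarbonate transporters of the plasma membrane and the chloroplast envelope, carbonic anhydrases that interconvert CO2 and bicarbonate, and the stromal proteins LCIB and LCIC together raise CO2 around the carbon-fixing enzyme Rubisco, and most of these genes are known to be induced when CO2 is low. The regulator CCM1 (also called CIA5) is required for that induction, and the Myb-type factor LCR1 for part of it. LHCSR proteins, which dissipate excess light energy, are known to depend on part of the same regulation.

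At 5 min, 235 genes stood 2-fold or more above post-wash, or 1.87% of the kept genes, and 122 were lower, or 0.97%. HLA3 and LCI1, both of inorganic carbon uptake, had the largest differences of the higher group (2.59 and 2.54). Genes with differences of 2 or more also included NAR1.2, the cyclase gene CYG63, the energy-dissipation gene LHCSR3.1, PPP30, NRX3, PRL2 and several genes without a symbol. The lower group held PHX15, the low-CO2-inducible genes LCI35 and LCI34 and the chaperone gene ZNJ3, all of which had been 2-fold or more higher directly after the wash than before it. Most genes differed little: 10644, or 84.6%, lay within 0.5 of post-wash, and the median difference over all kept genes was -0.02. Only 15 genes were 4-fold or more higher and 10 lower. Many of those counted lie close to the limit, with 107 higher by 1 to 1.2 and 202 just outside by 0.8 to 1, and with 53 and 123 on the lower side. The cyclin gene CYCC1 (1.00) lay just inside and the kinase gene MAPKKK11 (0.99) just outside, as ACS3 (-1.0) lay just inside on the lower side. In 52 of the higher and 18 of the lower genes, FPKM was under 5 in both columns, and with a pseudocount of 0.1 in place of 1 the counts were 476 and 371. A symbol is given in the table for 36.6% of the higher and 18.9% of the lower genes, against 35.2% of all kept genes.

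The difference at 5 min was then read against the difference made by the wash (post-wash against pre-wash), in which 1065 genes were higher (8.47%) and 149 lower (1.18%). A gene was called new at 5 min where its wash difference was under 2-fold, continued where the wash difference was 2-fold or more in the same direction, and reversed where it was 2-fold or more in the other. Of the 235 higher genes, 159 were new, 18 continued and 58 reversed. Of the 122 lower genes, 34 were new, 0 continued and 88 reversed. The scatter of the 5 min difference against the wash difference shows the empty lower left corner, where a wash decrease would have gone on. It held 18 genes with a pseudocount of 0.1. Both differences contain the post-wash column, with opposite sign, so an error in that column alone would place genes among the reversed. The comparison of 5 min with pre-wash, which lacks that column, is given beside each class. Class membership was still chosen with the post-wash column, so that comparison is no independent check of the classes.

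**Figure D1:**
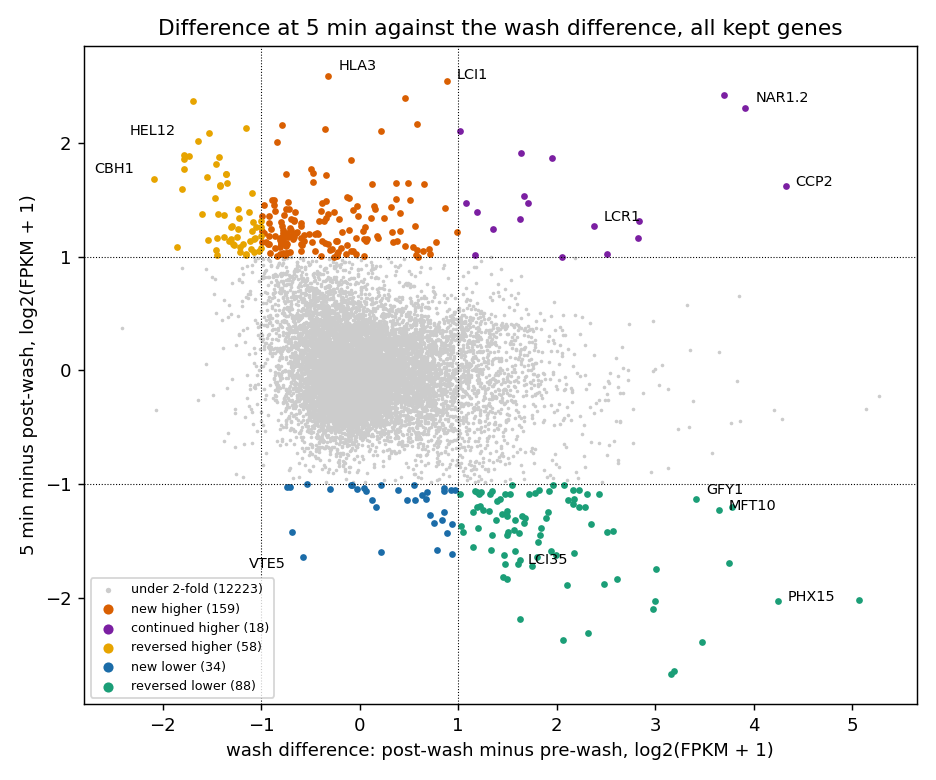
Each point is 1 of the 12580 kept genes, with the wash difference (post-wash minus pre-wash) on the x axis and the difference of 5 min minus post-wash on the y axis, both in log2(FPKM + 1), and dotted lines at the 2-fold limits. Colours mark the 159 new, 18 continued and 58 reversed genes that were higher and the 34 new and 88 reversed genes that were lower; no gene is continued on the lower side.

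The class new depends on where the limit for the wash is put. Among the 159 new higher genes, 72 had a wash difference of under 0.5 either way, 15 had been higher by 0.5 to 1 after the wash and 72 had been lower by 0.5 to 1. With 0.5 as the limit, 130 of the 235 higher genes are thus reversed, 72 new and 33 continued. Among the 34 new lower genes, 12 had a wash difference under 0.5. Set against pre-wash, 63 of the 159 new genes were 2-fold higher at 5 min and the class median was 0.78, and 13 of the 34 new lower genes were 2-fold lower, with a median of -0.66. All 18 continued genes were 2-fold above pre-wash, which the class rule fixes in advance, with a median of 3.37. The rules also fix on which side of pre-wash the new genes lie, but not how many differ by 2-fold.

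Most reversed genes lay within 1 of their pre-wash level on the log2(FPKM + 1) scale at 5 min. This held for all 58 genes that were lower after the wash and higher at 5 min, with a median of 0.04 against pre-wash, and 32 were above it. Of the 88 that were higher after the wash and lower at 5 min, 69 lay within 1 of pre-wash on that scale and 19 were still 2-fold above it, with a median of 0.34. Read from the wash side, 88 of the 1065 genes that were higher after the wash (8.26%) were 2-fold lower again at 5 min, 18 (1.69%) were higher still, and 959 differed by under 2-fold. Their median was 1.36 across the wash and 1.32 at 5 min, both against pre-wash, and 764 (71.7%) remained 2-fold above pre-wash at 5 min. Of the 149 genes lower after the wash, 58 (38.9%) were 2-fold higher again and 37 (24.8%) remained 2-fold below pre-wash, and the median went from -1.19 to -0.47. In all, 1104 kept genes were 2-fold higher at 5 min than before the wash (8.78%) and 202 lower (1.61%).

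Genes of the CO2-concentrating mechanism had the highest median difference of the 27 gene lists examined. Of 17 members kept, 10 were 2-fold higher at 5 min (58.8%, against 1.87% of all kept genes) and 0 lower. The list median was 1.21, against -0.02 over all kept genes. Of these 10, 6 were new and 4 continued, and the list median against pre-wash was 1.91. Among the 6, LCIB, LCI1 and LCIC had wash differences of 0.99, 0.88 and 0.78 and count as continued with a wash limit of 0.5. HLA3 (-0.32), CAH4 (0.37) and CAH5 (0.49) stay new with that limit. For the pairs CAH4 and CAH5, CCP1 and CCP2, and LCID and LCIE, whose members are near-identical, the split of reads within the pair is uncertain.

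Transporters for inorganic carbon showed the largest differences of the list. HLA3 (Cre02.g097800), an ABC transporter that brings bicarbonate across the plasma membrane, was at 3.47 FPKM pre-wash, 2.59 post-wash and 20.6 at 5 min, and then at 31.8, 31.9 and 30.4 FPKM at 10, 15 and 30 min and 8.94, 9.68 and 25.9 at 60, 120 and 240 min. Its wash difference was -0.32, so the whole 7.94-fold step fell within the first 5 min, and the value at 60 min was again under that at 5 min. LCI1 (Cre03.g162800), a plasma membrane protein of inorganic carbon uptake, was at 0.390 FPKM pre-wash, 1.57 post-wash and 13.9 at 5 min, and then at 42.9, 74.3 and 341 FPKM at 10, 15 and 30 min and 355, 539 and 682 at 60, 120 and 240 min. It was 8.89-fold higher at 5 min than post-wash and, unlike HLA3, was higher at each sampling than at the one before.

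The transporters of the continued class were already higher after the wash. NAR1.2 (Cre06.g309000), a channel of the chloroplast envelope for bicarbonate, was at 2.33 FPKM pre-wash, 49.3 post-wash and 248 at 5 min, and then at 363, 369 and 290.2 FPKM at 10, 15 and 30 min and 170.0, 191 and 312 at 60, 120 and 240 min. Its difference was 3.92 across the wash and 2.31 in the next 5 min. CCP2 (Cre04.g222750), annotated as a low-CO2-inducible chloroplast envelope protein, was at 4.88 FPKM pre-wash, 117 post-wash and 360.5 at 5 min, and then at 484, 457 and 348 FPKM at 10, 15 and 30 min and 144, 88.7 and 167 at 60, 120 and 240 min. Most of its difference from pre-wash was thus present post-wash (4.33, against 1.62 from post-wash to 5 min), and it was highest at 10 min. The similar CCP1 was at 6.21 FPKM pre-wash, 21.9 post-wash and 65.2 at 5 min, and was highest at 240 min with 322 FPKM.

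Carbonic anhydrases were not uniform at 5 min. The mitochondrial CAH5 (Cre05.g248450) and CAH4 (Cre05.g248400) were at 8.81 FPKM pre-wash, 12.8 post-wash and 42.1 at 5 min (CAH5), and at 13.1 FPKM pre-wash, 17.3 post-wash and 50.9 at 5 min (CAH4), 3.29-fold and 2.95-fold above post-wash. They went on to 330.1 and 415 FPKM at 240 min, their highest values. CAH1, the periplasmic enzyme that is the best known low-CO2 marker of this alga, was at 69.5 FPKM pre-wash, 61.9 post-wash and 87.4 at 5 min, a difference of 0.49, under 2-fold. It was then at 128, 179.8 and 494 FPKM at 10, 15 and 30 min and 1152, 2981 and 3286 at 60, 120 and 240 min, so its large difference came after the first 5 min. CAH3, the enzyme of the thylakoid lumen, differed by 0.59, and CAH8 and CAH7 by 0.05 and -0.05. CAH6 lay on the other side, at 50.0 FPKM pre-wash, 225 post-wash and 167 at 5 min, with a difference of -0.43, and CAH2, a periplasmic enzyme known to be repressed at low CO2, was at 13.4 and 11.5 FPKM post-wash and at 5 min.

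The stromal LCIB (Cre10.g452800) was the most abundant member at 5 min, at 415 FPKM pre-wash, 827 post-wash and 1918 at 5 min. Its partner LCIC (Cre06.g307500) was at 312 FPKM pre-wash, 537 post-wash and 1175 at 5 min. Both were highest at 30 min, with 3477 and 2165 FPKM, and both had wash differences under the 2-fold limit (0.99 and 0.78), which is why they stand among the new genes. LCID, related to LCIB, was at 3.39 FPKM pre-wash, 30.4 post-wash and 77.0 at 5 min, while its near-copy LCIE stayed under 1 FPKM in all 3 columns.

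The regulator LCR1 (Cre09.g399552) was at 5.00 FPKM pre-wash, 30.2 post-wash and 73.9 at 5 min, and then at 78.2, 61.3 and 41.8 FPKM at 10, 15 and 30 min and 25.2, 26.5 and 30.2 at 60, 120 and 240 min. It was 2.45-fold higher at 5 min than post-wash, a difference of 1.27, after a larger wash difference of 2.38. Its highest value came at 10 min. CCP2 and LCID were highest at that same sampling (484 and 89.6 FPKM), and LCI1 and CAH1 at 240 min. CCM1, named for its role and not its size of difference, was at 25.8 FPKM pre-wash, 26.3 post-wash and 29.3 at 5 min, a difference of 0.15.

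**Figure D2:**
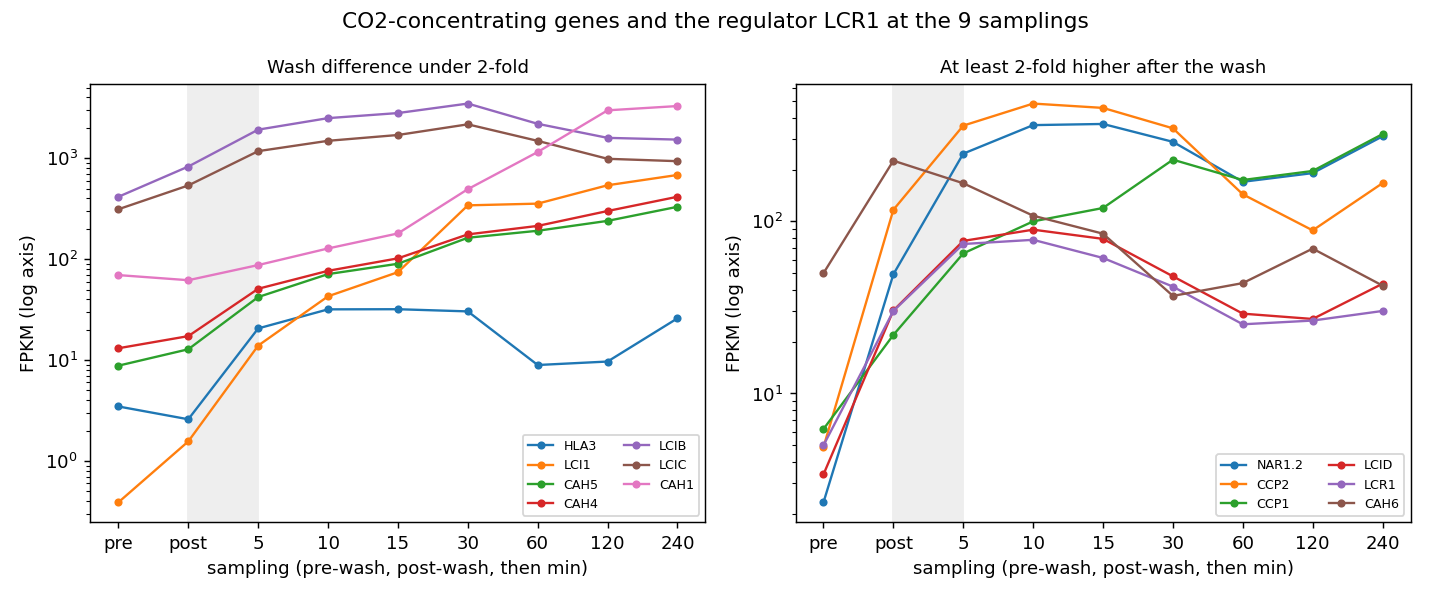
FPKM on a log axis at the 9 samplings (equal steps, not to scale in time) for genes of the CO2-concentrating mechanism and LCR1, with the interval from post-wash to 5 min shaded; each point is 1 combined value. The left panel holds genes with a wash difference under 2-fold on the log2(FPKM + 1) scale, which damps the low values of LCI1. HLA3, CAH4 and CAH5 are much steeper in the shaded interval than across the wash, NAR1.2, CCP2, LCID and LCR1 are steep in both, and CAH1 climbs mostly afterwards.

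Other genes named low-CO2-inducible (LCI) were mixed. Of 26 kept, 8 were 2-fold higher (30.8%) and 2 lower (7.69%) at 5 min, with a median of 0.17. Over all kept genes the shares were 1.87% and 0.97%. LCI16, an early light-inducible protein, was at 34.1 FPKM pre-wash, 63.1 post-wash and 172 at 5 min. LCI23, a septin-like protein, was at 0.0278 FPKM pre-wash, 0.324 post-wash and 3.14 at 5 min, and reached 19.3 at 240 min. LCI20, a 2-oxoglutarate and malate translocator, was at 20.0 FPKM pre-wash, 19.1 post-wash and 52.4 at 5 min, so it was flat across the wash and 2.74-fold higher 5 min later. LCI12 was at 3.16 FPKM pre-wash, 3.63 post-wash and 11.3 at 5 min.

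The 2 lower members are neighbours, and both had been high after the wash. LCI35 (Cre03.g191300) was at 5.38 FPKM pre-wash, 18.4 post-wash and 4.99 at 5 min, and LCI34 (Cre03.g191250) at 57.0 FPKM pre-wash, 270.3 post-wash and 117 at 5 min. LCI35 was back at its pre-wash level at 5 min and below it at each later sampling, with 2.18 FPKM at 60 min. LCI34 was still 2.05-fold above pre-wash at 5 min. LCI3 (5667 FPKM pre-wash, 6481 post-wash and 6010.4 at 5 min) differed by little (-0.11).

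Of 8 photoprotection genes kept, 3 were 2-fold higher (37.5%, against 1.87% of all kept genes) and 0 lower. Their median was 0.91, or 0.56 without the filter on low values. All 3 are LHCSR genes and all belong to the continued class. LHCSR3.1 (Cre08.g367500) was at 0.843 FPKM pre-wash, 2.74 post-wash and 15.1 at 5 min, LHCSR3.2 (Cre08.g367400) at 1.41 FPKM pre-wash, 6.49 post-wash and 27.2 at 5 min, and LHCSR1 (Cre08.g365900) at 6.40 FPKM pre-wash, 23.1 post-wash and 66.0 at 5 min. LHCSR3.1 and LHCSR3.2 are near-identical, and their separate values are uncertain. The early light-inducible ELI6 was at 16.1 FPKM pre-wash, 17.7 post-wash and 34.6 at 5 min, just under the limit with a difference of 0.93, and ELI3, which was at 8.84 FPKM before the wash and 60.6 after it, was at 44.4 at 5 min. PGR5, required for cyclic electron flow around photosystem I and chosen after its value was seen, was at 239 FPKM pre-wash, 271 post-wash and 609 at 5 min and reached 1029 at 30 min.

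**Figure D3:**
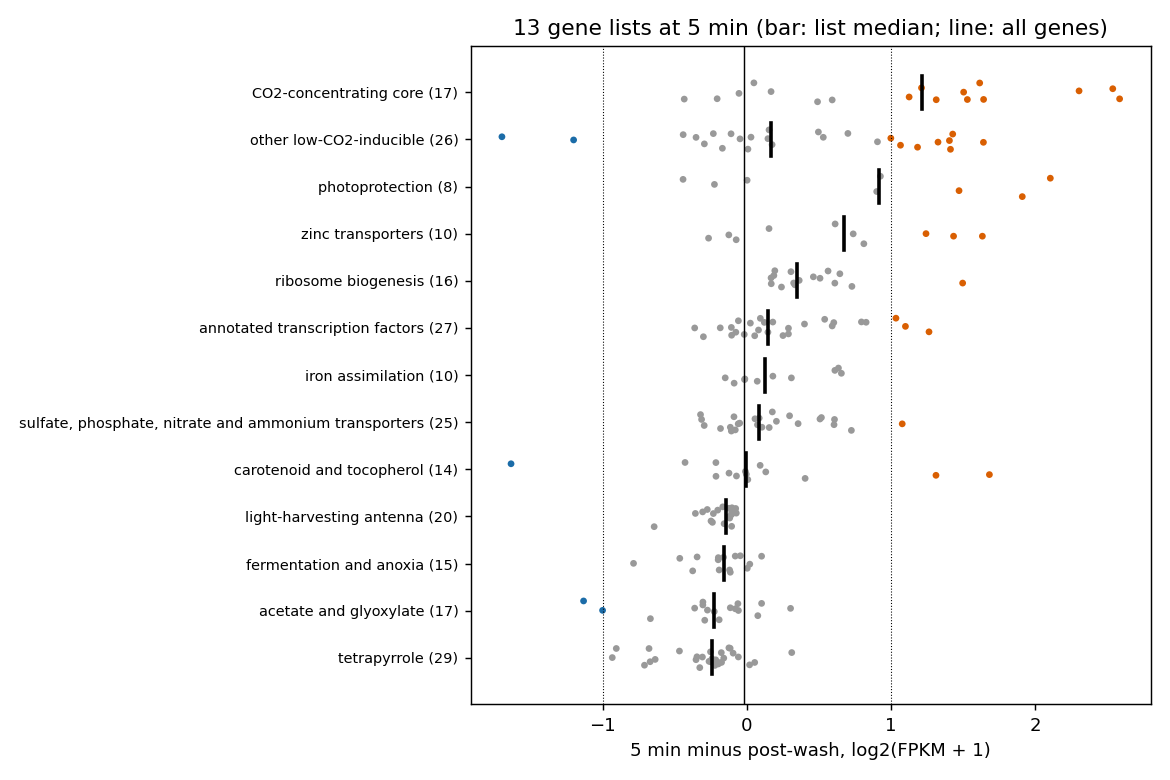
Difference of 5 min minus post-wash in log2(FPKM + 1) for the kept members of 13 gene lists, 1 point per gene, with orange for 2-fold higher, blue for 2-fold lower, a bar at each list median and a line at the median of all kept genes (-0.02). The CO2-concentrating list sits furthest right with 10 of 17 members past the limit, while no iron assimilation, antenna, fermentation or tetrapyrrole gene passes it.

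Among genes of signalling and redox control, few members passed the limit. Over all kept genes 1.87% were higher and 0.97% lower. Of 87 cyclases and phosphodiesterases, 5 were higher, or 5.75% (9 genes with a pseudocount of 0.1), and 1 lower, or 1.15%, with a median of 0.12. CYG63 (Cre05.g236650), named as a cyclase, was at 0.302 FPKM pre-wash, 0.797 post-wash and 8.47 at 5 min, and then at 10.1, 8.98 and 4.15 FPKM at 10, 15 and 30 min and 2.09, 3.41 and 4.11 at 60, 120 and 240 min. It was 10.6-fold higher at 5 min, the largest ratio among the named genes that were higher, and was near its highest value already. The adenylate or guanylate cyclases CYG33 (1.22 FPKM pre-wash, 0.920 post-wash and 3.81 at 5 min) and CYG45 (4.83 FPKM pre-wash, 3.33 post-wash and 8.99 at 5 min) also had their values at 5 to 10 min above all others, and CYG62, the gene next to CCP1, was at 1.65 FPKM pre-wash, 1.11 post-wash and 3.56 at 5 min. CYG12 was the lower member, at 2.46 FPKM pre-wash, 8.59 post-wash and 3.53 at 5 min.

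PPP30, which has no product name in the table, was, like CYG63, highest at 10 min, at 0.645 FPKM pre-wash, 1.47 post-wash and 10.1 at 5 min, and then at 12.3, 10.5 and 2.87 FPKM at 10, 15 and 30 min and 0.569, 1.49 and 1.73 at 60, 120 and 240 min. By 60 min it was back under its pre-wash value. NRX3, a nucleoredoxin and so a thioredoxin-like protein, was at 3.31 FPKM pre-wash, 1.5 post-wash and 10.2 at 5 min, and reached 36.0 at 15 min. It was the single member of 57 redox genes past the limit, or 1.75%, close to the 1.87% of all kept genes. The median of that list was -0.01, with its sign turned under median-of-ratios scaling (0.01). The related NRX2 had 19.2 FPKM at 5 min, against 10.6 directly after the wash, and 130.1 at 30 min.

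Of 95 protein kinases, 0 were higher and 1 lower (5 and 2 with a pseudocount of 0.1), with a median of 0.01. The share lower, 1.05%, was close to the 0.97% of all kept genes. The lower member was STK2, at 2.13 FPKM pre-wash, 3.99 post-wash and 1.29 at 5 min. Among 27 annotated transcription factors, 3 were higher (LCR1, LCL1 and CGLD5A) and 0 lower, with a median of 0.15. The share higher was 11.1%, against 1.87% of all kept genes. LCL1 was at 10.7 FPKM pre-wash, 3.83 post-wash and 9.37 at 5 min, and so regained its pre-wash level, and CGLD5A, a putative AP2 domain factor, was at 3.21 FPKM pre-wash, 1.45 post-wash and 4.03 at 5 min. The cell cycle factor E2F1 was at 1.62 and 3.65 FPKM.

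Transporters other than those for carbon were also among the higher genes. MAE3, a MATE-type efflux protein, was at 5.30 FPKM pre-wash, 2.53 post-wash and 13.2 at 5 min, and CIT1, annotated as a chromate ion transporter, at 9.52 FPKM pre-wash, 6.50 post-wash and 24.5 at 5 min. CIT1 was at 32.9, 41.8 and 53.2 FPKM at 10, 15 and 30 min and 37.6, 21.8 and 23.1 at 60, 120 and 240 min afterwards. The sulfate transporter gene SULTR2 was the single member of 25 nutrient transporter genes past the limit, or 4%. It was at 23.1 FPKM pre-wash, 11 post-wash and 24.4 at 5 min, and at its highest, 132 FPKM, at 30 min. In a list of 10 zinc transporter genes, made after the values were seen, 3 were higher, or 30%, and 0 lower, with a median of 0.68. Shares over all kept genes were 1.87% higher and 0.97% lower. ZRT5 was at 14 FPKM pre-wash, 15.4 post-wash and 49.9 at 5 min, ZRT2 at 12.2 FPKM pre-wash, 32.8 post-wash and 79.0 at 5 min, and ZRT1 at 0.656 FPKM pre-wash, 1.06 post-wash and 4.57 at 5 min. All 3 were back under their 5 min values at 60 min. None of 34 ion channel genes passed the limit, and their median was 0.23.

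Genes of iron assimilation, the nutrient withheld, were not yet past the limit. Of 10 kept, 0 were 2-fold higher or lower at 5 min, with a median of 0.13. TEF22 was at 119.9 FPKM pre-wash, 78.2 post-wash and 124 at 5 min, FEA2, a secreted iron-assimilating protein, at 59.3 FPKM pre-wash, 62.6 post-wash and 97.9 at 5 min, and the iron permease FTR1 at 94.7 FPKM pre-wash, 74.0 post-wash and 114 at 5 min. These 3 had differences of 0.66, 0.64 and 0.61, while the ferroxidase FOX1 (-0.01) and FEA1 (0.07), named here for their place in the pathway, stood near post-wash. For TEF22 and FTR1 the step of 5 min came after lower values post-wash, and against pre-wash they differed by 0.05 and 0.26.

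A further set of higher genes had been lower after the wash. HEL12 (Cre02.g118300), a DEAD box RNA helicase, was at 22.6 FPKM pre-wash, 6.59 post-wash and 29.7 at 5 min, and then at 46.8, 67.8 and 95.9 FPKM at 10, 15 and 30 min and 35.3, 8.45 and 4.17 at 60, 120 and 240 min. CBH1 (Cre04.g215050), a beta-carotene hydroxylase that makes xanthophylls, was at 16.0 FPKM pre-wash, 3.0 post-wash and 11.9 at 5 min, and then at 28.1, 45.1 and 90.9 FPKM at 10, 15 and 30 min and 58.9, 24.2 and 39.8 at 60, 120 and 240 min. Both regained roughly their pre-wash value at 5 min and were several-fold above it at 30 min. PRL2, a predicted extracellular protein, was at 6.65 FPKM pre-wash, 2.45 post-wash and 14.1 at 5 min, and CLPS2, an adaptor of the Clp protease, at 11.1 FPKM pre-wash, 3.36 post-wash and 11.5 at 5 min. ZEP1, the zeaxanthin epoxidase, acts in the same pathway as CBH1 and was at 28.3 FPKM pre-wash, 13.6 post-wash and 35.3 at 5 min.

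Genes that act on RNA and ribosome assembly were described with 3 lists. Of 64 octotricopeptide repeat (OPR) genes, a family that acts on organelle transcripts, 6 were higher and 0 lower (16 and 2 with a pseudocount of 0.1, and 2 and 0 where FPKM of 5 was required), with a median of 0.25 at 5 min and of -0.42 across the wash. OPR5 was at 9.84 FPKM pre-wash, 4.09 post-wash and 14 at 5 min. Of 43 helicase (HEL) genes 3 were higher and 0 lower (6 and 2 with a pseudocount of 0.1), with medians of 0.11 (0.37 where FPKM of 5 was required) and -0.38. Both lists were made after the values were seen. Their shares higher were 9.38% (OPR) and 6.98% (HEL), while 1.87% of all kept genes were higher and 0.97% lower. Against pre-wash, the list medians at 5 min were -0.19 (OPR) and -0.13 (HEL). In the ribosome biogenesis list all 16 members had positive differences at 5 min, against 5953 of the 12580 kept genes. The list median was 0.35 after a wash median of -0.41, and that of 5 min against pre-wash was 0.03. The limit was passed by 1 member, or 6.25%. This was RNP3, a protein of the U3 small nucleolar particle, at 27.3 FPKM pre-wash, 14.5 post-wash and 42.9 at 5 min. The RNA polymerase I subunits RPA12 and RPA1 went from 21.1 and 20.6 FPKM to 35.6 and 32.0. The medians of both ribosomal protein lists stayed near 0 at 5 min, with -0.00 for 74 cytosolic and 0.07 for 33 plastid genes.

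**Figure D4:**
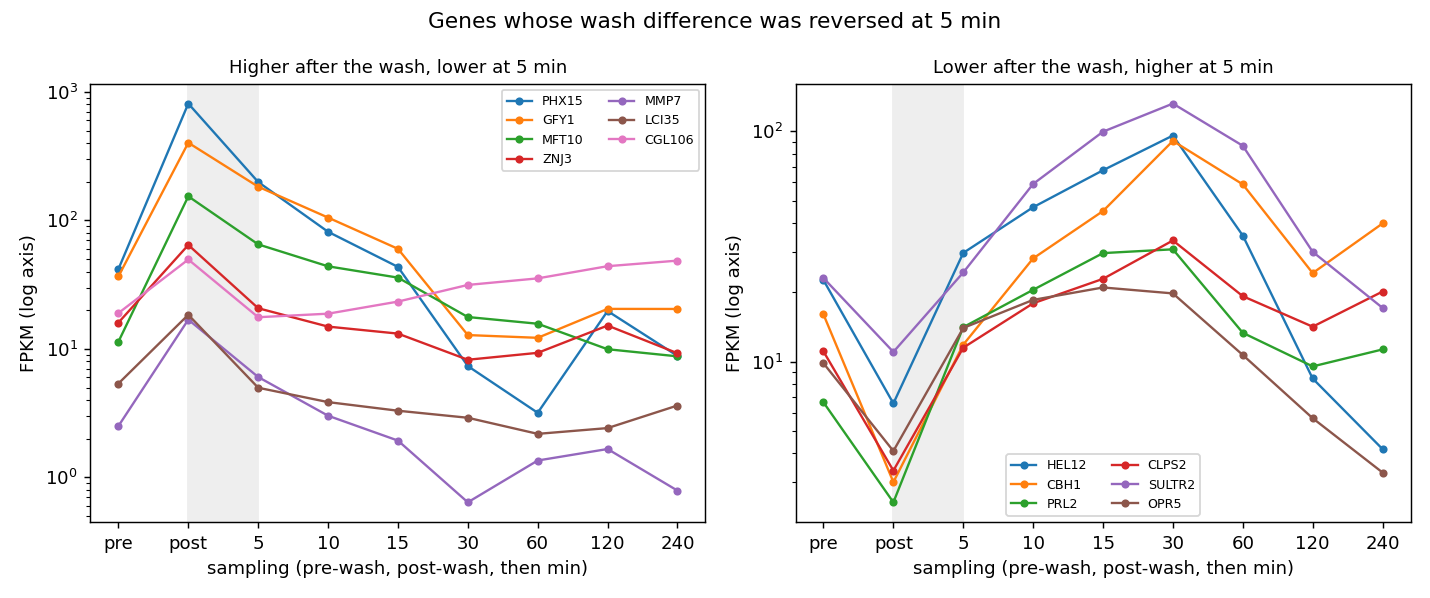
FPKM on a log axis at the 9 samplings (equal steps, not to scale in time) for genes whose wash difference was reversed at 5 min, with the interval from post-wash to 5 min shaded; each point is 1 combined value. On the left, PHX15, GFY1, MFT10, ZNJ3, MMP7 and LCI35 are highest post-wash and lower at both 5 and 10 min, and CGL106 climbs again from 10 min; on the right, HEL12, CBH1, PRL2, CLPS2, SULTR2 and OPR5 are low post-wash and highest at 15 or 30 min.

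On the lower side, PHX15 (Cre10.g443050), which the table gives no product name, was at 41.8 FPKM pre-wash, 811 post-wash and 199 at 5 min, and then at 81.6, 43.5 and 7.36 FPKM at 10, 15 and 30 min and 3.18, 19.7 and 8.83 at 60, 120 and 240 min. It was 4.08-fold lower at 5 min than post-wash and still 4.76-fold above pre-wash. GFY1 (Cre17.g700450), of a family of acetate transporters, was at 36.7 FPKM pre-wash, 402 post-wash and 183 at 5 min, and MFT10, a major facilitator transporter, at 11.4 FPKM pre-wash, 154 post-wash and 65.1 at 5 min. Both were over 2-fold lower at 5 min than post-wash and still several-fold above pre-wash. ZNJ3, a DnaJ-like zinc-finger protein, was at 16.0 FPKM pre-wash, 64.4 post-wash and 20.7 at 5 min, and so was near its pre-wash level at 5 min.

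Further genes of this kind had lower levels. MMP7, a metalloproteinase of the VMP family, was at 2.51 FPKM pre-wash, 16.9 post-wash and 6.04 at 5 min, NYC1, probably a chlorophyll b reductase, at 3.97 FPKM pre-wash, 13.1 post-wash and 4.78 at 5 min, and MOC1, a mitochondrial transcription termination factor, at 1.32 FPKM pre-wash, 11.5 post-wash and 4.90 at 5 min. AAH1, related to aromatic amino acid hydroxylases, was at 1.92 FPKM pre-wash, 13.4 post-wash and 5.80 at 5 min. CGL106 differed from the rest in its later course: it was at 19.0 FPKM pre-wash, 49.6 post-wash and 17.6 at 5 min, and then at 18.8, 23.4 and 31.5 FPKM at 10, 15 and 30 min and 35.4, 44.0 and 48.6 at 60, 120 and 240 min, so that from 10 min it climbed back towards its post-wash level.

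The 5 min ratios of the 122 lower genes correspond to 1 halving every 1.56 to 4.99 min, with a median of 3.28 min, if each gene had been lost at a constant rate; the rule of 2-fold sets the upper end of that range. PHX15 would have halved every 2.47 min and ZNJ3 every 3.06 min. These are net rates of the measured level, in which synthesis and decay cannot be told apart.

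New lower genes with a symbol were few, 7 of 34. VTE5 (Cre09.g396250), annotated as a phosphatidate cytidylyl transferase, was at 13.9 FPKM pre-wash, 9.02 post-wash and 2.23 at 5 min, and then at 1.92, 1.63 and 4.89 FPKM at 10, 15 and 30 min and 8.00, 14.1 and 10.7 at 60, 120 and 240 min. ACS3 (Cre07.g353450), an acetyl-CoA synthetase and by far the most abundant of these, was at 416 FPKM pre-wash, 287 post-wash and 143 at 5 min, and had its lowest value, 71.3 FPKM, at 30 min. Its difference of -1.0 fell just under the limit with quantile normalization and with median-of-ratios scaling (-0.99 and -0.98). CGLD12 was at 6.61 FPKM pre-wash, 7.30 post-wash and 2.77 at 5 min and CPLD39 at 25.2 FPKM pre-wash, 23.8 post-wash and 11.3 at 5 min, with CPLD39 at -0.99 and so under the limit with median-of-ratios scaling. MRPL11, a protein of the mitochondrial ribosome, had gone up after the wash and came back, at 11.2 FPKM pre-wash, 21.0 post-wash and 9.73 at 5 min.

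The lists on metabolism and structure that held GFY1, ACS3, MMP7 and PHX15 were not lower as a whole by 2-fold. Of 17 acetate and glyoxylate genes, 0 were higher and 2 lower (GFY1 and ACS3), with a median of -0.23, and isocitrate lyase, ICL1, the first enzyme of the glyoxylate cycle, was at 1861 FPKM pre-wash, 1854 post-wash and 1443 at 5 min. Of 53 cell wall and matrix genes, 2 were higher (MMP4 and MMP22) and 2 lower, or 3.77% each way, with a median of 0.07. Over all kept genes 1.87% were higher and 0.97% lower. MMP4 stood out by its single high value, with 1.72 FPKM pre-wash, 2.15 post-wash and 12.5 at 5 min, and then 2.97, 4.78 and 0.708 FPKM at 10, 15 and 30 min and 1.74, 5.95 and 1.66 at 60, 120 and 240 min. Of 93 chaperone genes, 1 was higher (CLPS2) and 1 lower (ZNJ3), or 1.08% each way, not above the share of all kept genes on the higher side and near it on the lower. With a pseudocount of 0.1, 4 were lower. The list median was 0.03 (-0.01 under quantile normalization). The Hsp100 gene CLPD1 was at 5.18 FPKM pre-wash, 27.7 post-wash and 14 at 5 min.

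The cilia and fermentation lists, high after the wash, remained high at 5 min. Of 366 cilia genes, 0 were past the limit at 5 min against post-wash (2 with a pseudocount of 0.1). Of the same 366, 202 had been 2-fold higher across the wash and 254 were 2-fold above pre-wash at 5 min. From post-wash to 5 min, 316 had a positive difference, with a list median of 0.30. Over all 12580 kept genes, these 3 counts were 1065 (8.47%), 1104 (8.78%) and 5953. FAP17, a flagellar associated protein, had the largest difference, at 1.11 FPKM pre-wash, 3.78 post-wash and 7.99 at 5 min. Of 15 fermentation genes, 0 were past the limit (1 lower without the filter) and 12 had negative differences, against 6627 of all kept genes. The list median was -0.16 after one of 1.38 across the wash. The hydrogenase HYDA2 was at 9.38 FPKM pre-wash, 62.9 post-wash and 36.1 at 5 min, and HYDG1, which matures hydrogenases, at 16.8 FPKM pre-wash, 328 post-wash and 258 at 5 min.

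Most tetrapyrrole genes, which serve pigment synthesis, were slightly lower at 5 min than post-wash, none past the limit. Of 29 tetrapyrrole genes, 26 had negative differences, against 6627 of the 12580 kept genes, with a list median of -0.24. In this list 8 genes were 2-fold below pre-wash at 5 min and 4 post-wash, against 1.61% and 1.18% of all kept genes. PBGD1, porphobilinogen deaminase, was at 252 FPKM pre-wash, 111 post-wash and 57.6 at 5 min, POR, the light-dependent protochlorophyllide reductase, at 249.5 FPKM pre-wash, 104 post-wash and 55.2 at 5 min, and GSA1, glutamate-1-semialdehyde aminotransferase, at 288 FPKM pre-wash, 199 post-wash and 124 at 5 min. PBGD1 and POR had differences of -1.18 and -1.25 across the wash and of -0.93 and -0.91 in the next 5 min, the second step just under the limit. All 20 light-harvesting antenna genes had negative differences, none past the limit, with a median of -0.14; LHCBM8 had the lowest, -0.64. In the carotenoid and tocopherol list of 14, CBH1 and ZEP1 were higher (14.3%) and VTE5 lower (7.14%), against 1.87% and 0.97% of all kept genes. The list median was -0.01, and its sign turned under median-of-ratios scaling.

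The remaining lists held few genes past the limit. Of 69 cell cycle genes, 3 were higher (RIR3, CYCL1 and CYCC1), or 4.35%, and 0 lower (7 and 2 with a pseudocount of 0.1), with a median of -0.25. The shares of all kept genes were 1.87% higher and 0.97% lower, and CYCC1 lay at the limit (1.00). RIR3, a ribonucleotide reductase subunit that supplies DNA precursors, was at 28.1 FPKM pre-wash, 18.7 post-wash and 43.9 at 5 min. RIR2, another subunit of that enzyme, went the other way, at 33.1 FPKM pre-wash, 27.2 post-wash and 14.1 at 5 min, a difference of -0.90. In this list 48 members had negative differences and 21 positive ones. Of 74 respiratory chain genes and 26 gamete genes, 0 were past the limit in either direction, with medians of -0.04 and -0.02, the latter 0.00 under median-of-ratios scaling. The gamete list stands for the other cell state such a culture could hold.

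The largest differences on the lower side, and several on the higher side, belong to genes with no symbol or product in the table. Cre26.g756747 was at 0.969 FPKM pre-wash, 24.6 post-wash and 136 at 5 min, and then at 191, 182 and 102 FPKM at 10, 15 and 30 min and 23.4, 24.4 and 30.9 at 60, 120 and 240 min. Its wash difference was 3.70, and it belongs to the continued class. Cre12.g487200 was at 35.8 FPKM pre-wash, 10.4 post-wash and 58.0 at 5 min, Cre01.g003950 at 3.42 FPKM pre-wash, 2.46 post-wash and 14.1 at 5 min, and Cre17.g701050 at 25.2 FPKM pre-wash, 8.06 post-wash and 37.6 at 5 min. Of these, Cre12.g487200 and Cre17.g701050 had been lower after the wash. Cre03.g146367, of the same kind, was at 26.5 FPKM pre-wash, 7.02 post-wash and 28.8 at 5 min.

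The 5 unnamed genes with the largest decreases had all been high after the wash. Cre14.g610100 was at 1.02 FPKM pre-wash, 17.1 post-wash and 1.85 at 5 min, Cre09.g409650 at 21.6 FPKM pre-wash, 206 post-wash and 32.3 at 5 min, and Cre03.g200850 at 7.79 FPKM pre-wash, 97.0 post-wash and 17.8 at 5 min. Cre09.g409650 was 6.40-fold lower at 5 min than post-wash and reached 1.49 FPKM at 30 min. Cre04.g228050 was at 1.85 FPKM pre-wash, 10.9 post-wash and 1.31 at 5 min and Cre16.g672602 at 6.15 FPKM pre-wash, 34.6 post-wash and 6.18 at 5 min, so Cre04.g228050 was under its pre-wash value at 5 min and Cre16.g672602 was close to it.

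Some of the genes lie side by side. All 357 could be placed in the gene order of the RefSeq annotation (assembly Chlamydomonas_reinhardtii_v5.5). There, 21 pairs of direct neighbours differed in the same direction, 18 both higher and 3 both lower, and held 41 genes. The share of such pairs over all neighbouring genes was not computed, so these counts are not read as clustering. The same-direction pairs include CCP2 with LCID, CCP1 with CYG62, CAH4 with CAH5, LHCSR3.1 with LHCSR3.2, both genes named LCI11, and LCI34 with LCI35. In 3 further pairs the neighbours differed in opposite directions. BCS1, an assembly factor of the cytochrome bc1 complex, was at 66.8 FPKM pre-wash, 38.0 post-wash and 95.4 at 5 min, while its neighbour Cre05.g234660 was lower by -1.62, and ACS3 lies next to CGLD5A. The sources used here do not say whether counting was stranded, so reads of overlapping neighbours could not be told apart. These pairs were picked after their values were seen.

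For most genes the 5 min value was a point on the way. Of the 235 higher genes, 208 were higher still at 10 min, and the highest of the 9 values came at 30 min in 92, at 15 min in 62, at 10 min in 47 and at 5 min in 18. Of the 122 lower genes, 112 were lower still at 10 min, and the lowest value came at 30 min in 72 and at 5 min in 2. The classes differed in what followed. The continued genes had a median of 4.05 above pre-wash at 15 min and of 2.49 at 240 min, when 15 of 18 were still 2-fold above pre-wash. The new higher genes had medians of 1.09, 1.08 and 1.14 at 10, 15 and 30 min and -0.11 at 240 min, when 29 were 2-fold above and 31 below pre-wash.

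The reversed genes did not stop at the pre-wash level. The 58 that were higher at 5 min had a median of 0.63 above pre-wash at 30 min and of -0.86 at 240 min, when 24 were 2-fold below it. The 88 that were lower at 5 min were at -0.18 by 10 min and at -0.79 by 30 min, when 34 were 2-fold below pre-wash and 1 above. The new lower genes had a median of -1.34 at 30 min and of -0.37 at 240 min. Over all kept genes the median against pre-wash stayed between -0.00 and 0.07 at these samplings.

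**Figure D5:**
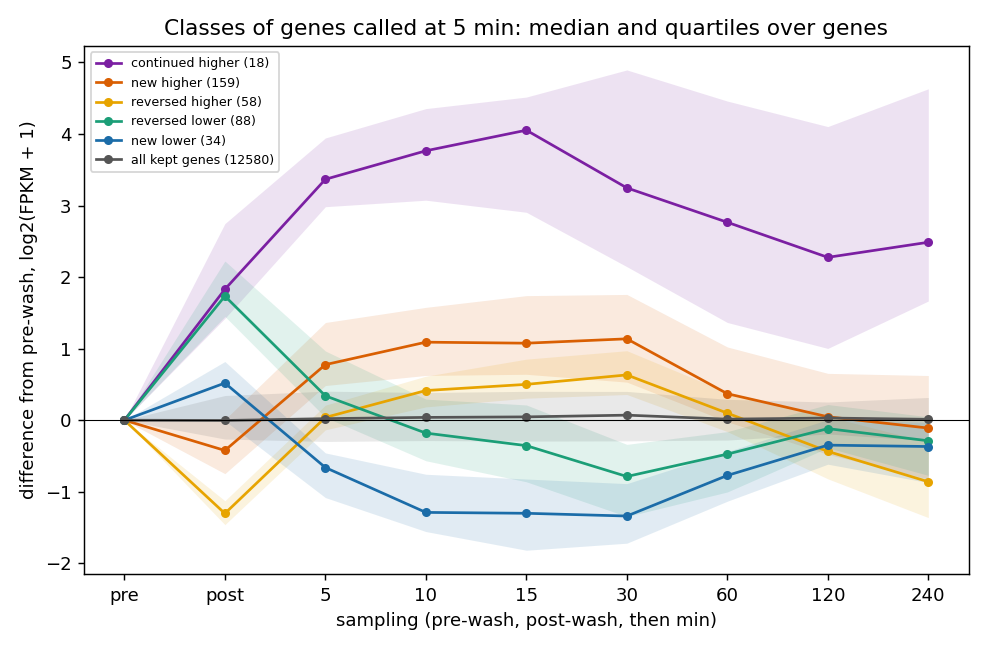
Median (line) and quartiles over genes (band) of the difference from pre-wash in log2(FPKM + 1) at the 9 samplings (equal steps, not to scale in time), for the classes of genes called at 5 min and for all 12580 kept genes. The median of the 18 continued genes stays above 2 from 5 min on, while 13 of them are 2-fold above pre-wash at 120 min. The medians of the reversed classes are past 0 by 5 min (reversed higher) and by 10 min (reversed lower), and lie furthest beyond it at 30 min. All classes but the continued one have medians between -0.86 and 0.05 at 120 and 240 min.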

How the data were processed

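Polyadenylated RNA of 18 samples in 9 groups had been sequenced on an Illumina instrument, per the labels' protocols. The authors deposited FPKM per gene with 1 column per group, so the 2 cultures were combined before deposit. The submitters' processing notes name STAR 2.4.1 and Cuffdiff 2.0.2, and the sources used here state neither the scaling of the columns nor whether counting was stranded. A further 9 value columns, of samples that are not among the 18, were left out.

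With Python 3.11.15, numpy 2.4.6 and pandas 2.3.3, FPKM were converted to log2(FPKM + 1), which understates differences of weakly expressed genes. A gene was kept when 2 or more columns reached an FPKM of 1, and 2-fold differences were counted. With 1 value per group there is no test, replicate error or p-value. Depth is unknown: among 542 genes with FPKM under 0.05 in both columns, the most frequent log2 ratio of 5 min to post-wash, -0.47, was found in 31, and whole reads were not recovered. Library sizes therefore give no interval for any value. The counting and class rules were tested on simulated data with high expression, little noise and differences well past the limit. That check covers neither genes near the limit, nor weakly expressed genes, nor the continued lower class.

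The 27 gene lists, 3 of them (zinc transporters, OPR and HEL) made at a late stage, match symbols of the deposited table, and 5186 genes have one. Members, lists and the comparison were chosen with earlier results of these data known. Named genes are the 15 with the largest difference each way that have a symbol and reach an FPKM of 5 in either column, the 5 largest per class, up to 4 per list, and 5 without a symbol each way. Other genes named were chosen after their values were seen. The RefSeq table matched 17738 identifiers and served only for gene order. Alternatives were a pseudocount of 0.1, no filter, FPKM of 5 or more, quantile normalization, median-of-ratios scaling and a wash limit of 0.5. A planned share of promoters with a motif was not run, since promoter sequences were not used here.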

Additional observations from a re-analysis of the deposited data

How the results depend on the processing

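No paired analysis was possible because each group has a single combined column, and for the same reason leaving out a replicate could not be run. Of 123 comparisons of main results with an alternative, 98 stayed within 1.5 times the count or within 0.19 of the median. Most of these results are counts, which have no direction to turn. The medians among them, of the CO2-concentrating, other LCI and photoprotection lists, stayed positive. Outside these, the medians of 5 lists, all near 0, changed sign under a rescaling (redox, chaperone, carotenoid and tocopherol, cytosolic ribosomal protein and gamete genes), as did the median over all genes with FPKM of 5 or more required. With a pseudocount of 0.1, which lets weakly expressed genes in, 476 genes stood above and 371 below post-wash; 268 of the higher genes were new, 28 continued (also the number higher after the wash and higher still) and 180 reversed (also the number lower after the wash and higher again), 224 of the lower genes were new and 18 continued (also the number lower after the wash and lower still), 859 were lower than pre-wash, and the photoprotection median was 1.18. Without a filter that median was 0.56. With FPKM of 5 or more required in 2 columns, 74 genes were lower than post-wash, 20 of them new and 54 reversed (also the number higher after the wash and back down), and 107 were lower than pre-wash. Quantile normalization gave 1 continued lower gene in place of 0, which is also the number lower after the wash and lower still. A wash limit of 0.5 left 72 new, 33 continued and 130 reversed genes among the higher, and 12 new and 5 continued among the lower. Of the named genes, 47 were checked singly, those with the largest differences each way, within a class or without a symbol. None of the 47 turned its direction, and 3 of 231 values fell under the 2-fold limit, all in ACS3 and CPLD39 under rescaling. All 47 had been picked for differences past 2-fold in these same data, so the lack of a turn says little. Genes named only by other rules, such as CYCC1 as a list member, were not among the 47. The promoter motif share was not run. Depth is unknown, and the classes rest on 1 post-wash column.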
